A study of Mus musculus with 12 samples.

Results

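Zinc handling in mouse livers carrying an altered LRH-1 was followed through 9 genes: the metallothioneins Mt1 and Mt2, the zinc importers Slc39a4, Slc39a5, Slc39a8, Slc39a10 and Slc39a14, and the exporters Slc30a1 and Slc30a10. The genes were taken by symbol from the platform annotation, and each was read by 1 probe set, so that 9 of 19938 genes with a single symbol are described. They were chosen by earlier results of these arrays, namely the low Slc39a4 level in the mutant and the high metallothionein levels on arrays WT 1 and WT 3. The differences between genotypes in these 9 genes are therefore given as descriptions without a p-value.

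RNA of 12 livers was measured, 1 Affymetrix array per mouse, and all mice were C57BL/6J males. There were 6 wild-type (WT) mice and 6 mice carrying the LRH-1 K289R knock-in, and every mouse went through a 24 h fast and then 6 h of refeeding. K289R replaces a lysine of LRH-1, the nuclear receptor encoded by Nr5a2, with an arginine and removes a site of SUMO attachment. Age is not given in the sources used here, and the labels do not limit the knock-in to a cell type. Values are summarized probe-set intensities in linear units, and array medians ran from 26.8 to 29.2.

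Metallothioneins are small cysteine-rich proteins that bind zinc and copper in the cytosol. Their genes are known to be switched on by zinc through the metal-sensing factor MTF-1, by glucocorticoids and by the cytokines of the acute phase response. ZIP proteins, encoded by Slc39 genes, bring zinc into the cytosol, and ZnT proteins, encoded by Slc30 genes, take it out. In the liver, uptake of zinc through ZIP14 (Slc39a14) and its storage on metallothionein are known to lower plasma zinc during inflammation.

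Promoter windows show the sequence context of the metal response for the genes that MTF-1 is best known to regulate, the pair of metallothioneins and Slc30a1. Each window runs from 250 bases before to 50 bases from the annotated start on, from RefSeq, build GRCm38.p6. Capitals mark matches to the metal response core, searched as TGCACNC and TGCGCNC on both strands. Mt2 and Mt1 lie on chromosome 8, at chr8:94172368-94172667 and chr8:94178839-94179138, and the Slc30a1 window is chr1:191906531-191906830, all on the plus strand.
Mt1: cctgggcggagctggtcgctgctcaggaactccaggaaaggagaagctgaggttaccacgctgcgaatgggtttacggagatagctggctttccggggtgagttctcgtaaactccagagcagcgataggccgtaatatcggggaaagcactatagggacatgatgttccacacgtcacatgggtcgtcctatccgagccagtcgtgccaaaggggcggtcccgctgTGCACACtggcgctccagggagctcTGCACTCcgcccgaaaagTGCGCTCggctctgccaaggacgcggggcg
Mt2: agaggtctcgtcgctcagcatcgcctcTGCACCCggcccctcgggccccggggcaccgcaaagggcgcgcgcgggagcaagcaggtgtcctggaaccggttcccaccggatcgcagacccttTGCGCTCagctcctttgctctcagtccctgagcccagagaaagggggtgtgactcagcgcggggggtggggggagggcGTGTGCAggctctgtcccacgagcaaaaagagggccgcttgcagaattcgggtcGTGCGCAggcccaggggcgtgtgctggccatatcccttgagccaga
Slc30a1: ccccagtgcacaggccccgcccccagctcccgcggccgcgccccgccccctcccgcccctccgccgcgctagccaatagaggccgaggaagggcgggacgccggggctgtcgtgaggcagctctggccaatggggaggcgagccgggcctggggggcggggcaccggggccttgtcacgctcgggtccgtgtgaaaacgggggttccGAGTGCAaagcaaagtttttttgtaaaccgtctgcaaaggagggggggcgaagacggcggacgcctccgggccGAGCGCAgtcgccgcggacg

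The Mt2 window held 4 matches, the Mt1 window 3 and the Slc30a1 window 2. With the start base as position 0, the Mt1 matches spanned -23 to -17, 2 to 8 and 20 to 26. Those of Mt2 spanned -223 to -217, -128 to -122, -50 to -44 and 4 to 10. Of all 32851 promoter windows of this length, 25.7% held at least 1 match, 7.11% at least 2, 1.97% at least 3 and 0.517% at least 4. In all, 7 of the 9 genes matched the promoter table, with 10 windows; Slc39a4 and Slc39a14 did not. The Slc30a10 window held 3 matches, of which 2 overlap on opposite strands, and 1 of the paired windows of each of Slc39a5 and Slc39a8 held 1. The STAT motif TTCNNNGAA was found in 1 window of Slc39a10 and lies in 8.30% of all windows. The antioxidant motif TGACNNNGC was found in the windows of Mt2, Slc30a1, Slc39a8 and Slc39a5 and lies in 12.4% of all. The NR5A motif CAAGGNCA, which LRH-1 is known to bind, was found in none of the 10 windows and lies in 6.71% of all. These matches are letters in a window and not binding sites measured here.

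A few arrays stood apart in ways that touch these genes. The mean log2 intensity of 19 acute phase genes, which the liver raises in inflammation, was 10.05 on WT 1 and 10.13 on WT 3. The remaining WT arrays had means of 8.94 to 9.15, and the K289R arrays had means of 8.84 to 9.48. Pancreatic acinar markers, 10 genes of digestive enzymes and their cofactors, averaged 8.34 on K289R 1 and 8.96 on K289R 3 and at most 4.48 on the other 10 arrays. Skeletal muscle markers were highest on WT 1 (6.79) and K289R 3 (5.75), with at most 4.88 elsewhere. The mean of 5 Kupffer cell markers was highest on K289R 4 (7.57), with 6.38 to 7.12 on the other 11 arrays, and that array also had the highest acute phase mean of the mutants. Hepatocyte markers were bright on all arrays, with means of 12.25 to 12.34. Beside the results below, the part that these transcripts have in them was not tested.

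Mt2 and Mt1 were the most variable genes of the WT livers. The SD of log2 intensity over the 6 WT arrays was 1.96 for Mt2, the highest of all 19938 genes, and 1.86 for Mt1, which only Mt2 exceeded. The median SD over all genes was 0.14. In K289R livers the SD of Mt2 was 0.65, a value reached by 57 genes (0.286% of all), whereas that of Mt1 was 0.21, reached by 3603 genes (18.1%). Metallothionein levels were therefore far apart between WT mice. Among the mutants Mt1 varied less than in WT but still more than most genes.

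**Figure D1:**
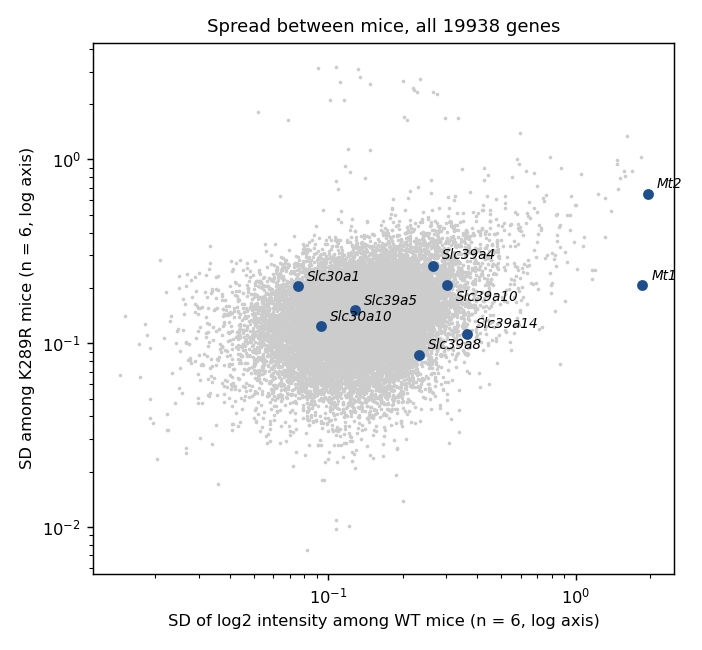
SD of log2 intensity among the 6 WT mice (horizontal, log axis) against the SD among the 6 K289R mice (vertical, log axis), 1 point per gene, with the 9 metallothionein and zinc transporter genes in blue. Mt2 (1.96 in WT) and Mt1 (1.86) lie at the right edge of all 19938 genes, and the transporters lie within the cloud.

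The spread of Mt1 came from 2 mice. Mt1 measured 699 on WT 1 and 2038 on WT 3, whereas the other WT arrays read 132, 93.5, 92.5 and 123. The K289R arrays read 137, 139, 169, 149, 128 and 110.2. Thus WT 1 and WT 3 were above every K289R array, WT 4 and WT 5 were below every one, and the groups overlapped.

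Mt2 had the same high arrays in the opposite order. It measured 2415 on WT 1 and 1078 on WT 3, and 159, 97.0, 95.8 and 175 on WT 2, 4, 5 and 6. On the K289R arrays it read 123, 159.6, 391, 285, 179 and 136, with K289R 3 and K289R 4 highest. The log2 ratio of Mt2 to Mt1 was 1.79 on WT 1 and -0.92 on WT 3, outside its range of -0.15 to 1.21 on the other 10 arrays. As the pair is read by separate probe sets, these ratios compare arrays and give no ratio of the proteins or transcripts to each other.

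The mean of Mt1 over 6 WT arrays was 530 ± 776 (SD) and that over 6 K289R arrays 139 ± 19.8 (SD). The difference of the mean log2 intensities, in which high arrays weigh less than in these linear means, was -0.81 (95% interval -2.08 to 0.46). For Mt2 the linear means were 670 ± 936 and 212 ± 105 (SD, n = 6 each), and the difference of the mean log2 intensities was -0.61 (95% interval -2.01 to 0.79). Without WT 1 and WT 3 the differences turned positive, to 0.34 for Mt1 and 0.62 for Mt2, and Mt2 was at -0.0022 without WT 1 alone. Without WT 3 alone the Mt1 difference was -0.20. The sign of the metallothionein difference thus depended on 2 of 6 WT mice. Among the 4 other WT mice the SD was 0.46 for Mt2, reached by 91 genes (0.456%), and 0.27 for Mt1, reached by 1097 genes (5.50%).

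**Figure D2:**
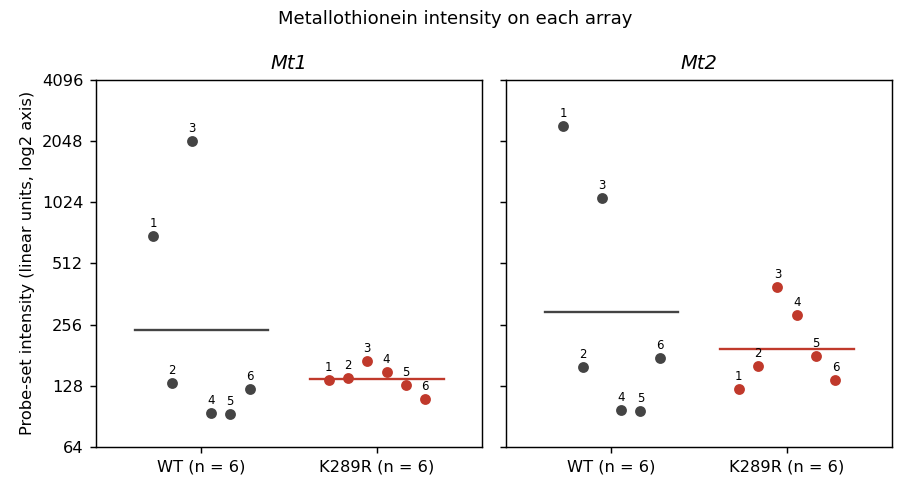
Probe-set intensity (linear units on a log2 axis) of Mt1 and Mt2 on each array, WT in grey and K289R in red, with the replicate number above each point and a line at the mean of the log2 values (n = 6 per group). WT 1 and WT 3 sit at 699 to 2415, above all K289R arrays, which sit between 110.2 and 391.

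Slc39a4, which encodes ZIP4, the importer that takes up dietary zinc in the intestine, was the member that separated the genotypes. Its intensities were 229, 168, 140.5, 213, 163 and 195 on WT 1 to 6 and 105, 116, 91.3, 142, 97.6 and 86.0 on K289R 1 to 6. The groups overlapped at a single point, where K289R 4 (142) lay just above WT 3 (140.5), and the other 5 K289R arrays were below all WT arrays. The WT mean was 185 ± 33.5 (SD, n = 6) and the K289R mean 106 ± 20.5 (SD, n = 6), a 1.74-fold lower level (95% interval 1.44 to 2.10). In bulk liver, fewer cells of a type and less RNA per cell cannot be told apart.

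The arrays that stood apart did not share a direction for Slc39a4. K289R 1 and K289R 3 (105 and 91.3) lay within the range of the other mutants, and WT 1 and WT 3 were the highest and the lowest WT array. Its log2 difference was -0.80 with all arrays. It was -0.81 when WT 1 and WT 3 were left out, -0.75 when K289R 1 and K289R 3 were, and -0.76 when all 4 were. Without K289R 4, the mutant that overlapped the WT range, it was -0.89. Slc39a4 had an r of 0.04 with the acute phase mean over the 10 arrays other than WT 1 and 3 (permutation p = 0.916, Benjamini-Hochberg adjusted p = 0.916). Both genotypes were pooled there, so the genotype difference of Slc39a4 enters this r. Within K289R alone r was 0.47 (exact permutation p = 0.361, adjusted p = 0.516, n = 6). Within all WT arrays, WT 1 and WT 3 included, r was -0.11 (exact permutation p = 0.789, adjusted p = 0.854, n = 6). The mean log2 intensity of 6 markers of enterocytes, the cell type best known for ZIP4, was 4.53 to 4.78 in the WT group and 4.42 to 4.68 among the mutants. Of these markers Fabp2 was bright on every array, at 308 to 536, and the other 5 were at most 29.3.

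Over all genes, limma called 114 of 19938 changed at an adjusted p under 0.05, which is 0.572%, and 18 of them were lower in K289R (0.0903%). Of the 9 members 1 was called, Slc39a4, which had been a reason for the choice. The median log2 difference of the members was -0.06, beside -0.01 over all genes. No member had groups without overlap, beside 1.24% of all genes, 0.391% with every K289R array below every WT array and 0.853% with every one above.

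Slc39a14 encodes ZIP14, which carries zinc, manganese and iron into hepatocytes and is known to rise with interleukin-6. It measured 803 on WT 1 and 646 on WT 3, the highest values of the 12 arrays, and 548, 475, 426 and 424 on WT 2, 4, 5 and 6. The K289R arrays ran from 442 to 554 with a median of 502, inside the WT range. The WT mean was 554 ± 148 and the K289R mean 507 ± 38.6 (SD, n = 6 for both), with a log2 difference of -0.09 (95% interval -0.37 to 0.19). That difference was 0.02 without WT 1 and 0.12 without WT 1 and 3. Like those of Mt1 and Mt2, the SD of Slc39a14 was larger in WT (0.37, reached by 2.12% of genes) than in K289R (0.11, reached by 69.2%). Without WT 1 and WT 3 the WT SD of Slc39a14 was 0.17, reached by 26.2% of genes. For Slc30a1 the WT SD was the smaller, 0.08 against 0.20 in K289R. No test of these spreads was made.

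The other 3 importers differed little between genotypes. Slc39a8 encodes ZIP8, a zinc and manganese importer, and read 146, 94.98, 102, 116, 133 and 117 in WT against 120 to 140.5 (median 134) in K289R, so that 4 WT arrays lay below all K289R arrays and WT 1 above them. Its log2 difference was 0.17 (95% interval -0.03 to 0.37). Slc39a10 encodes ZIP10, a plasma membrane importer whose gene is known to be repressed by zinc through MTF-1. It read 53.0 to 64.4 on 5 WT arrays, 93.6 on WT 3 and 56.3 to 82.0 on the K289R arrays (median 74.3), a log2 difference of 0.18 (95% interval -0.09 to 0.46) that rose to 0.30 without WT 3. Slc39a5, which encodes the basolateral importer ZIP5, was dim, at 34.8 to 44.7 in WT and 32.5 to 44.9 in K289R, close to the array medians. Its log2 difference was -0.05 (95% interval -0.22 to 0.12), and on the arrays with acinar transcripts it read 39.0 (K289R 1) and 44.9 (K289R 3).

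Neither exporter differed by more than its spread. Slc30a1 encodes ZnT1, which exports zinc across the plasma membrane, and measured 98.0 to 113 in WT (median 104) and 82.2 to 117 in K289R (median 103). Its log2 difference was -0.06 (95% interval -0.24 to 0.12). K289R 4 (82.2) and K289R 5 (88.4) lay below all WT arrays, and K289R 1 (115) and K289R 2 (117) above them. Without K289R 4, which also had the highest Kupffer marker mean, the log2 difference was -0.0013. Slc30a10 encodes a manganese exporter of the liver and intestine, and its values ran from 263 to 319 on WT arrays and 270.0 to 337 on the mutants. Its log2 difference was 0.06 (95% interval -0.09 to 0.21). The transporters known to carry manganese, Slc39a8, Slc39a14 and Slc30a10, thus had log2 differences of 0.17, -0.09 and 0.06.

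**Figure D3:**
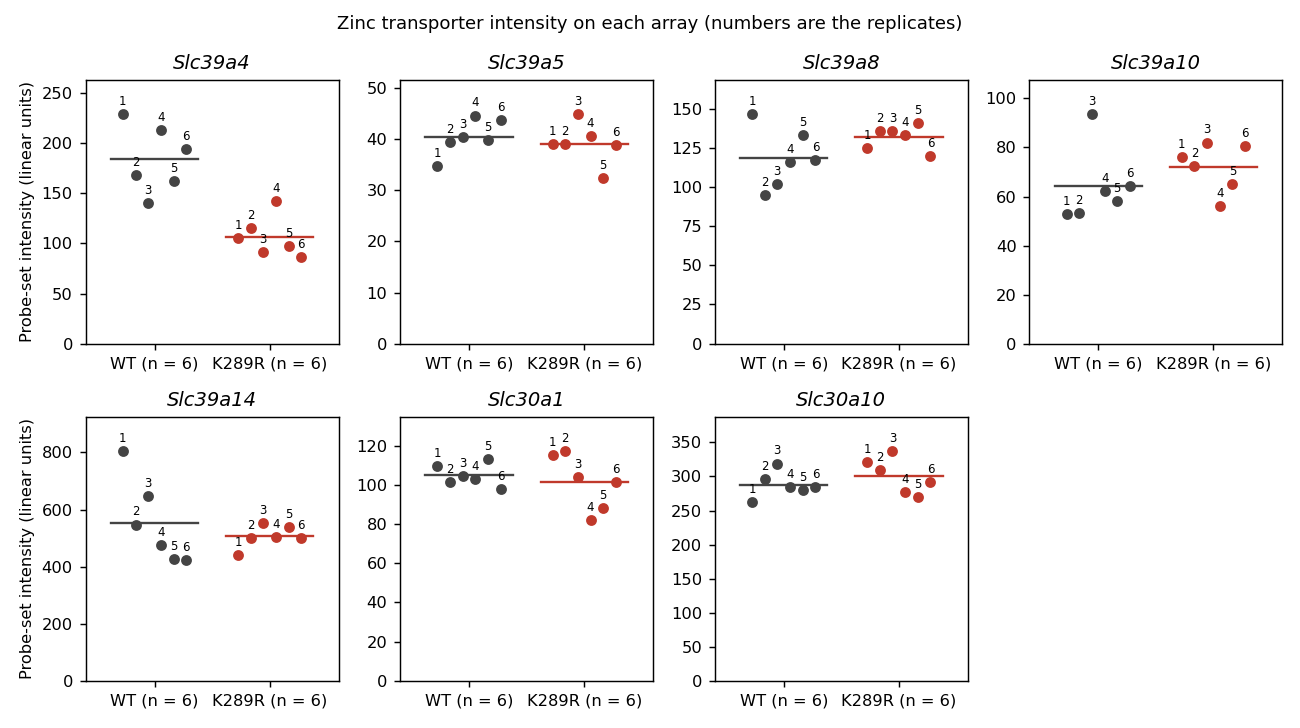
Probe-set intensity (linear units, axes from 0) of the 7 zinc transporter genes on each array, WT in grey and K289R in red, with replicate numbers and a line at the mean (n = 6 per group). Slc39a4 sits at 140.5 to 229 in WT and 86.0 to 142 in K289R. The ranges of the groups overlap more for the others, although 4 WT arrays lie below all K289R arrays for Slc39a8.

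Metallothionein levels were compared with the acute phase mean array by array. Because WT 1 and WT 3 lay apart from the rest, no correlation over all 12 arrays is given for these relations, and 10 of them were computed over the other 10 arrays, which hold both genotypes. Mt1 and Mt2 rose together there, with r = 0.87 (permutation p = 0.00152, Benjamini-Hochberg adjusted p = 0.0152) and rho = 0.76 (permutation p = 0.0150, adjusted p = 0.109). Without K289R 3 and K289R 4, the next farthest arrays in the acute phase mean, r was 0.79 (exact permutation p = 0.0230, adjusted p = 0.115, n = 8) and no longer passed. Mt2 had r = 0.74 with the acute phase mean (permutation p = 0.0152, adjusted p = 0.0508) and rho = 0.66 (permutation p = 0.0437, adjusted p = 0.109), and r was 0.40 without those arrays. For Mt1 r was 0.48 (permutation p = 0.158, adjusted p = 0.316) and rho 0.37 (permutation p = 0.296, adjusted p = 0.494), and without K289R 3 and 4 r was -0.00032 and rho -0.21. For Slc39a14 r was 0.52 (permutation p = 0.115, adjusted p = 0.288) and rho 0.70 (permutation p = 0.0300, adjusted p = 0.109).

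Slc30a1 ran the other way on those 10 arrays, with r = -0.80 (permutation p = 0.00517, adjusted p = 0.0258) and rho = -0.67 (permutation p = 0.0375, adjusted p = 0.109). Within K289R alone r was -0.82 (exact permutation p = 0.0486, adjusted p = 0.162, n = 6). Within all WT arrays, which put WT 1 and WT 3 back in, r was 0.22 (exact permutation p = 0.690, adjusted p = 0.854, n = 6). Those 10 arrays without K289R 3 and 4 gave r = -0.79 (exact permutation p = 0.0211, adjusted p = 0.115, n = 8). On WT 1 and WT 3, where the acute phase mean was highest, Slc30a1 read 109.7 and 104, within a WT range of 98.0 to 113 (median 104). The other 5 members had r between -0.38 (Slc39a10) and 0.12 (Slc39a5), with adjusted p-values of at least 0.481 (permutation test).

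**Figure D4:**
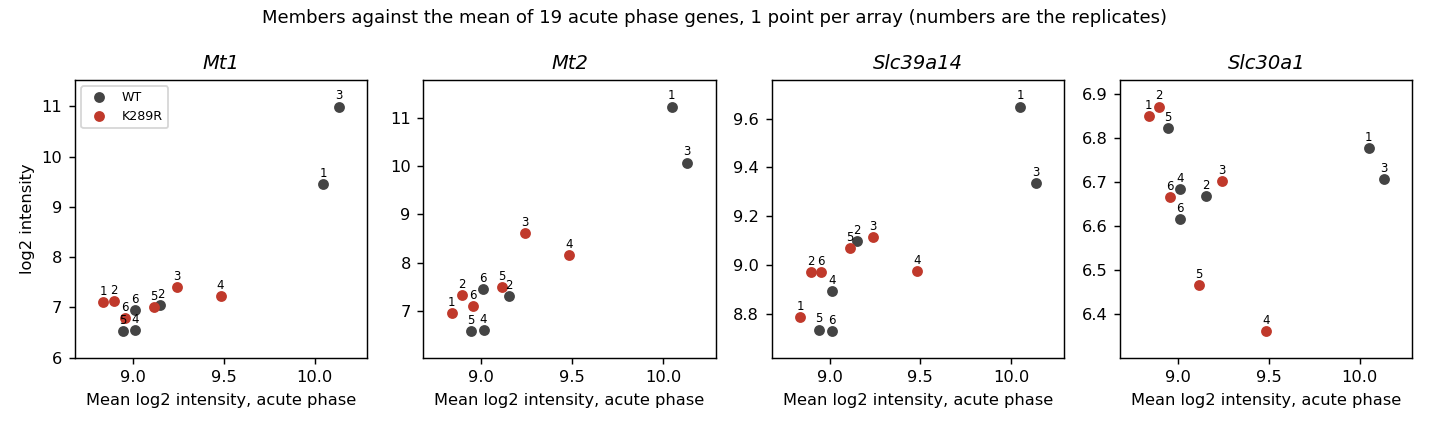
Log2 intensity of Mt1, Mt2, Slc39a14 and Slc30a1 (vertical) against the mean log2 intensity of 19 acute phase genes (horizontal), 1 point per array, WT in grey and K289R in red with replicate numbers. WT 1 (10.05) and WT 3 (10.13) lie apart on the horizontal axis and are highest for Mt1, Mt2 and Slc39a14 but not for Slc30a1.

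The genes whose pattern was most like that of the metallothioneins were found by Pearson r over the 12 arrays with the genotype means taken off. These r are descriptions over arrays that include WT 1 and WT 3. With the mean of Mt1 and Mt2 the closest were the acute phase protein Orm2 (r = 0.96), the lectin Mlec (0.95), the histone methyltransferase Kmt2a (0.94), the serpin Serpina10 (0.94) and the lipopolysaccharide-binding protein Lbp (0.93). Without WT 1 and WT 3 the same r fell to 0.62, 0.27, 0.68, 0.15 and 0.69, so the likeness rested largely on those arrays, and Orm2 and Lbp are themselves on the acute phase list. As with the metallothioneins, WT 1 and WT 3 were their 2 highest arrays, for instance 547 and 660 for Orm2 against 99.8 to 192 elsewhere. For Slc39a4 they were Pcdhb5 (r = 0.91), Spaca1 (0.85), Cpt1c (0.85), Rhoa (0.82) and Lman2l (0.81), and without WT 1 and WT 3 these r lay between 0.76 and 0.88. For both targets the genes were picked as the largest of very many r, so chance alone can give high values. The arrays other than WT 1 and WT 3 also took part in the picking, so an r that stays high there shows no stability. The probe sets of Pcdhb5, Spaca1 and Cpt1c had WT means of 5.85, 4.76 and 25.0, under every array median, so these likenesses involve dim signals.

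In the rest of the zinc transporter families, 17 further genes, limma called none, beside 0.572% of all genes, and none reached an unadjusted p under 0.05, beside 12.03% of all genes. A count of 0 calls among so few genes is near that background. Their median log2 difference was -0.01, and they ran from -0.18 to 0.13. Among the importers Slc39a13, which acts in early secretory vesicles, differed by -0.09 (adjusted p = 0.604) and Slc39a11 by 0.08 (adjusted p = 0.683). Among the exporters the vesicular transporter Slc30a3 had a difference of -0.15 (adjusted p = 0.475) and Slc30a9 one of 0.13 (adjusted p = 0.562). Of all 14 measured Slc39 genes 1 was called, and of 10 Slc30 genes none.

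**Figure D5:**
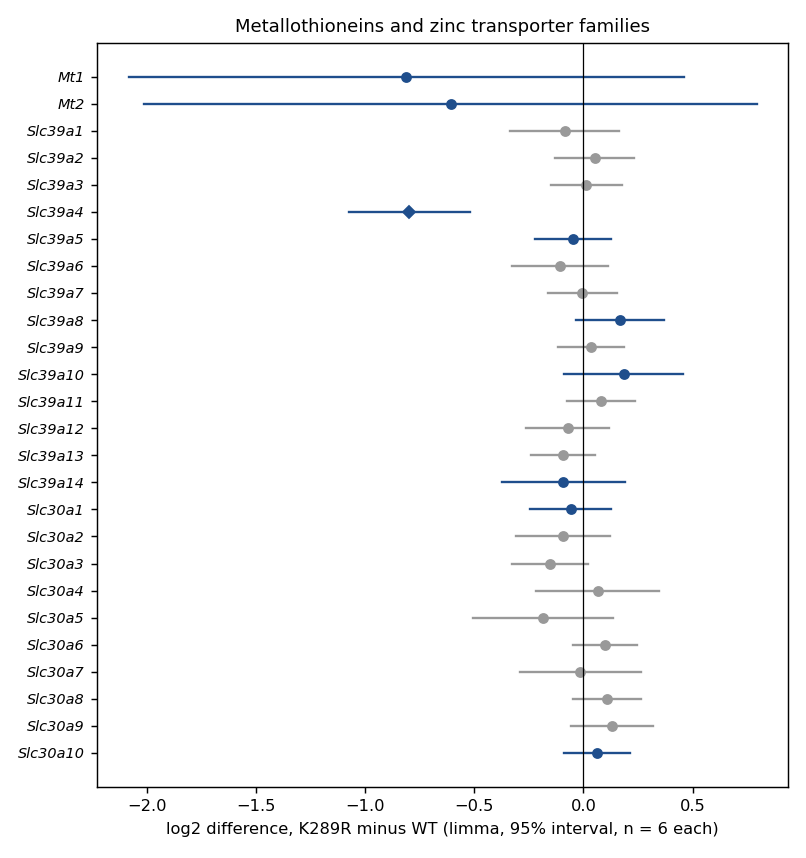
Log2 difference, K289R minus WT, of Mt1, Mt2 and all 24 measured zinc transporter genes with 95% intervals from limma (n = 6 each), described members in blue, the other 17 in grey, and a diamond for the called gene. Slc39a4 (-0.80) lies apart from 0, and the intervals of Mt1 and Mt2 reach from about -2 to above 0.

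The wider lists hold 88 genes of metal handling, the acute phase, glucocorticoid response and antioxidant defence. Limma called 0 of them, beside 0.572% of all genes, and 11 had an unadjusted p under 0.05, beside 12.03% of all genes (2399 of 19938). Of 7 further metallothionein and metal response genes none was called: the glutathione synthesis enzyme Gclc had a log2 difference of 0.08 (adjusted p = 0.719), the cation channel Trpm7 0.13 (adjusted p = 0.629) and Mtf1 itself -0.06 (adjusted p = 0.774). In the iron list (16 genes, median -0.01) hepcidin, Hamp, which the liver secretes to limit iron export, had a WT mean of 2871 ± 332 (SD, n = 6) and a K289R mean of 1863 ± 549 (SD, n = 6). Its log2 difference was -0.66 (adjusted p = 0.0637). With K289R 1 left out the difference was -0.79 (adjusted p = 0.00663), and with K289R 1 and K289R 3 left out it was -0.87 (adjusted p = 0.00365). No other removal of a single array brought it under the threshold, with adjusted p-values of 0.0542 to 0.154 from limma. With WT 1 and WT 3 left out it stayed at -0.64, with an adjusted p of 0.199. The iron-regulated aconitase Aco1 had a difference of 0.15 (adjusted p = 0.379). In the copper list (9 genes, median 0.09) Commd1 and the copper ATPase Atp7b both had differences of 0.16 (adjusted p = 0.383 and 0.523).

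The inducers of metallothionein known from textbooks were read in the same way. Acute phase genes had a median difference of -0.22 over 19 genes with none called; Orm2 differed by -0.86 (adjusted p = 0.365) and Serpina3n by -0.28 (adjusted p = 0.400), and WT 1 and WT 3 were the arrays with the highest mean. Without those arrays the median was -0.03 and the mean difference turned from -0.30 to 0.06. With all arrays 1 of 19 genes was positive, beside 46.0% of all genes, and without WT 1 and WT 3 it was 8 of 19. Of 10 glucocorticoid-responsive genes 9 had positive differences, beside 46.0% of all genes, and none was called, with a median of 0.18. Whether this list as a whole was shifted was not tested. Fkbp5 (0.51, adjusted p = 0.0764) and Tsc22d3 (0.36, adjusted p = 0.248) had the smallest p, and the mean of this list was 7.98 on WT 1 and 7.52 on WT 3, its highest and lowest WT value. On K289R 3, the mutant with the highest Mt1 and Mt2, it was 8.30, the highest of all arrays. That array also had the highest mean of acinar markers (8.96). Skeletal muscle markers were high on it (5.75) and on WT 1 (6.79). Without K289R 1 and K289R 3 the median of the glucocorticoid list was 0.12, still with 9 of 10 genes positive. The Fkbp5 difference was then 0.40 (adjusted p = 0.170 from limma). No correlation of the metallothioneins with the glucocorticoid list was computed, and a link was not tested. Of 10 antioxidant genes none was called, with a median of 0.01, Nqo1 at 0.38 (adjusted p = 0.175) and Nfe2l2 at 0.33 (adjusted p = 0.111).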

How the data were processed

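Liver RNA of 12 mice was measured on 1 Affymetrix array each. The deposited values are linear probe-set intensities made with Affymetrix Expression Console, per the submitters' processing notes; its version is not given in the sources used here, nor are background correction and normalization. The table held 35556 rows, of which 21789 had 1 gene symbol in the platform annotation, and 21698 of those matched RefSeq (GRCm38.p6) by gene ID. Only rows with a single symbol were used. A gene with several probe sets was read by the brightest.

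Log2 was taken without a pseudocount, and K289R was compared with WT by limma 3.58.1 in R 4.3.3 (lmFit, eBayes, no covariates) on all 12 arrays, with Benjamini-Hochberg adjustment over 19938 genes and calls at an adjusted p under 0.05. Log2 differences and intervals come from this fit, and means ± SD are over linear intensities. The procedure was tested on simulated data with normal noise, the same SD in both groups and no arrays that stand apart. It recovered 87 of 100 genes changed 1.5-fold and 98 of 100 changed 2-fold, with 10 false calls among 195. These arrays differ from that setting, so the test does not show how the procedure fares on them. Correlations used 100000 permutations, or all permutations within 6 or 8 arrays. Figures were drawn with matplotlib 3.10.9.

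Members and gene lists were chosen with earlier results of these data known. Named genes were the 9 members, called genes of each list or otherwise its 2 genes with the smallest p, and the 5 genes most like the metallothioneins and Slc39a4, passing over predicted genes, small RNAs and receptor families; genes given beyond this rule were chosen after their values were seen. For arrays, their number limits the precision. Each array was a separate mouse per the labels, so the p-values measure the spread between mice. Array batches were not analysed here.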

Additional observations from a re-analysis of the deposited data

Results flagged for a closer look

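Slc39a10 on WT 3 stood apart from its group: it measured 93.6, and the 5 remaining WT values were 53.0 to 64.4, and the gap made up most of the WT range. Such a gap was looked for in 18 sets of 6 arrays, 9 genes in each genotype, and chance alone gives about 1 in 20. Its part in the difference between genotypes was not tested beyond leaving that array out, which moved the log2 difference from 0.18 to 0.30.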

How the results depend on the processing

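The 9 members and the gene lists were refitted under 9 other settings (scaling, offset of 16, dim genes left out, probe-set averaging, variance model, array weights, replicate block, all rows) and without each of the 12 arrays. The number of members called was 1 in each of these fits, the replicate block included, and the called gene was Slc39a4, with log2 differences from -0.89 to -0.71; its low level led to the choice of these genes, so the calls repeat that choice and lend it no support. Without 1 array the Mt1 difference ran from -1.09 to -0.20 and that of Mt2 from -0.93 to -0.0022; Slc39a5 and Slc39a14 each changed sign in 1 such fit. The number of called genes over all genes was 114, 81 to 159 without 1 array, 111 with the replicate block, 75 without K289R 1 and 3, and 65 without WT 1 and 3 and K289R 1 and 3. In the wider lists 0 genes were called, 0 to 1 without 1 array, and 1 with equal array medians (Fkbp5), with dim genes left out (Hamp), with the replicate block (Hamp), without K289R 1 and 3 (Hamp) and without all 4 arrays (Hamp); the cause was not tested. The correlation of Slc30a1 with the acute phase mean was -0.80 over the 10 arrays other than WT 1 and 3. Within WT, with WT 1 and 3 included, it was 0.22, so these values rest on unlike sets of arrays. Same-numbered arrays of the genotypes had correlations of their deviations from -0.23 to 0.23, over 0.1 in 2 of 6 pairs, and 1 of 6 WT arrays correlated best with its own number, so the numbers were not taken as pairs. Leaving out the arrays that stood apart, and the 10 and 8 arrays of the correlations, were chosen after the data were seen. Dim probe sets such as Slc39a5 lie near the array medians, where a difference may not be detectable.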

Other observations

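A few other zinc transporters, chosen here after their values were seen, were high on WT 1 or WT 3. Slc30a5, which encodes ZnT5 and loads zinc into the Golgi and secretory vesicles, measured 250.5 on WT 1 and 233 on WT 3, 128.2 to 151 on the remaining WT arrays and 130.1 to 163 on the K289R arrays. Slc30a7, which encodes its Golgi relative ZnT7, measured 124 and 157 on WT 1 and WT 3, 90.4 to 100.1 on the remaining WT arrays and 88.3 to 129.8 on the K289R arrays, so that WT 3 alone lay above all mutants. The importer Slc39a1 measured 279 and 254 on WT 1 and WT 3 and at most 230.4 on the others. Slc30a4 and Slc30a6, of the same family, had no WT array above all mutants, with WT maxima of 57.7 and 111 against K289R maxima of 64.6 and 113.

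The metallothioneins best known outside the liver lacked the high values of WT 1 and WT 3. Mt3, known from brain, measured 84.5 on WT 1 and 82.4 on WT 3, within its WT range of 71.7 to 108, and Mt4, known from stratified epithelium, measured 11.4 to 17.6 over the 12 arrays, under every array median.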
